A study of Takifugu fasciatus with 6 samples.

Results

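The enzymes of the methionine cycle were followed in liver of Takifugu fasciatus, a pufferfish, by taking every gene of the deposited table whose Swiss-Prot match carried the gene name bhmt, MAT1A, MAT2A, GNMT, AHCY or CBS, whatever the letter case and whether or not the name ended in an extra a or b. The names gave 10 genes of 20990, namely 5 of MAT2A, 2 of bhmt, 2 of CBS and 1 of GNMT, whereas no gene carried the name MAT1A or AHCY in that spelling. The study cooled juvenile fish and compared their liver mRNA with that of fish kept warm. All fish were first acclimated at 26 °C and were fed until 24 h before the treatments. The control group (CG; libraries G1, G2 and G3) stayed at 26 °C, and the experimental group (EG; libraries Ga, Gb and Gc) was cooled in steps and then held at 12 °C for 24 h. Every library was prepared from pooled liver of 6 fish, and p-values therefore measure the variation from pool to pool. The paper divided the fish among 6 aquaria under the same names, so differences between pools include those between aquaria.

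In the methionine cycle, methionine adenosyltransferases join methionine and ATP into S-adenosylmethionine (SAM), the methyl donor of most cellular methylation. After the methyl group has been passed on, S-adenosylhomocysteine remains, and adenosylhomocysteinase splits it into adenosine and homocysteine. Homocysteine is either methylated back to methionine, with betaine by betaine-homocysteine S-methyltransferase (BHMT) or with methyltetrahydrofolate by methionine synthase (MTR), or is drawn off towards cysteine by cystathionine beta-synthase (CBS). In mammals the liver carries most of this traffic, MAT1A is the adenosyltransferase of the adult hepatocyte and MAT2A that of most other cells, and glycine N-methyltransferase (GNMT) uses up surplus SAM. The pufferfish genes are named here only by their Swiss-Prot match. Whether a gene named MAT2A is the counterpart of mammalian MAT1A or of MAT2A was not tested, so the absence of the name MAT1A does not show that the gene is lacking.

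Of the 10 genes, 9 had enough reads to be tested, and 3 of these 9 (33.3%) rose in EG, 0 fell and 6 did not pass the test (edgeR quasi-likelihood test, adjusted p under 0.05 by Benjamini-Hochberg over 14357 genes). The genes that rose were a pair named MAT2A and 1 named CBS. Of all tested genes, 23.7% rose and 21.7% fell by the same rule. The share that rose among the enzymes therefore stands on few genes against a background in which 45.4% of genes passed. In edgeR no enzyme was lower at an unadjusted p under 0.05 either (0 genes). DESeq2, at an adjusted p under 0.05, called 4 higher and 0 lower. However, 1 gene, MAT2A on scaffold42, was called lower with library totals in place of TMM factors. The same gene was called lower in both limma fits on FPKM, which share that scaling, and without Gc. The median log2 fold change of the 9 genes was 0.48, beside -0.03 for all tested genes. In 4 of the 9 all EG libraries lay on the same side of all CG libraries, and this held for 57.8% of all tested genes.

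The libraries held 31150888 to 45548824 counts, and transcript levels are in CPM (read counts brought to a common library size by TMM factors). These factors assume that most genes did not change. The centre of all changes depends on the scaling: the median log2 fold change of all genes was -0.03 with TMM factors, -0.22 with upper quartile factors and -0.37 with library totals, and the share of calls that were higher was 52.2%, 40% and 31%. Markers of cell types were counted as genes, several under some names, beside 23.7% of all tested genes that rose and 21.7% that fell. Hepatocyte markers summed to 218021 to 244884 CPM in CG and 264048 to 322933 CPM in EG, with 11 of 21 tested genes (52.4%) higher and 2 (9.52%) lower. The higher calls of apoa1, TAT, hpx, an APOB gene and a c3 gene were lost with library totals. The most abundant of these markers, tf, did not pass (edgeR, log2 fold change 0.08, adjusted p = 0.695). Under fabp1, 1 gene was at 0 in every library, and no gene carried the name ALB. Erythrocyte markers summed to 6548 to 16548 CPM in CG and 3688 to 7184 CPM in EG (6 of 12 lower, 0 higher), and leukocyte markers to 59.2 to 97 and 27.4 to 50.8 CPM (3 of 11 lower, 0 higher). Endothelial and stellate markers summed to 1500 to 1943 and 972 to 1704 CPM (7 of 26 lower, 0 higher), and biliary and gut markers to 577 to 647 and 526 to 622 CPM (2 of 19 lower, 0 higher). Exocrine pancreas markers ranged from 5473 to 23700 CPM in CG and from 572 in Gb to 20869 CPM in EG (1 of 12 lower, 0 higher). The part of these cell types in the results was not tested, and in bulk liver fewer cells of a type and less RNA per cell cannot be told apart.

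**Figure D1:**
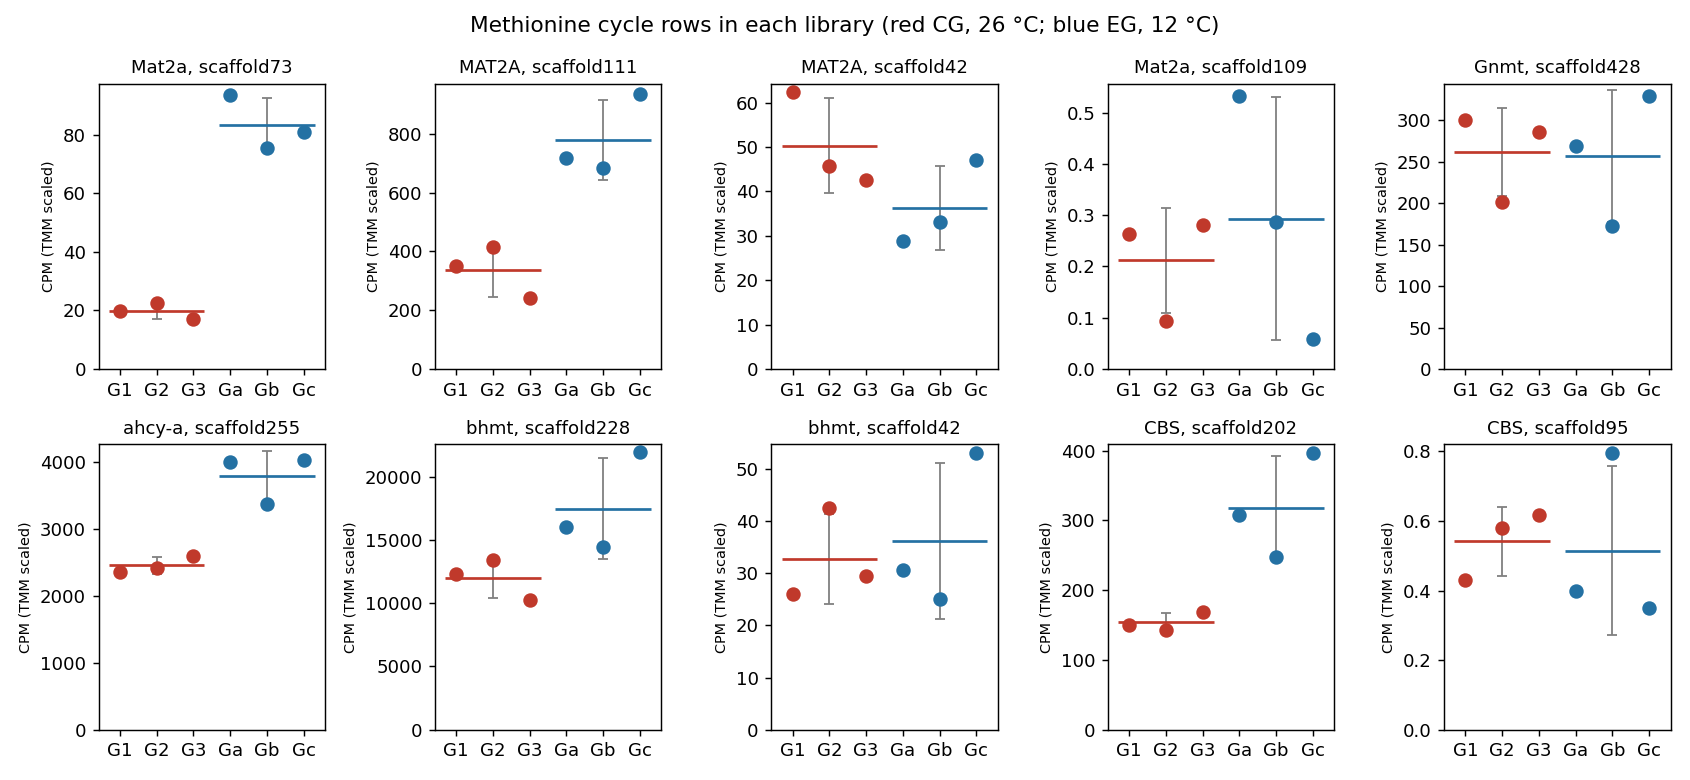
Level in CPM (TMM scaled; linear axis from 0) of the 9 tested methionine cycle genes and of ahcy-a in each library. Points are libraries (red CG, blue EG), lines group means and error bars the SD over 3 libraries; EG lies wholly above CG for Mat2a on scaffold73, MAT2A on scaffold111, CBS on scaffold202, bhmt on scaffold228 and ahcy-a.

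The SAM-forming enzymes held the largest rise among the 9 tested genes. The gene Mat2a on scaffold73 (fugu_GLEAN_10014732, plus strand, bases 903926 to 906658 of the authors' assembly) encodes a methionine adenosyltransferase matched to the mouse protein. It stood at 19.7, 22.5 and 17 CPM in G1, G2 and G3 and at 93.6, 75.6 and 81 CPM in Ga, Gb and Gc. Every EG library lay far above the highest CG library. The means were 19.7 ± 2.75 CPM in CG and 83.4 ± 9.25 CPM in EG (SD, n = 3), a log2 fold change of 2.08 (SE 0.166, 95% interval 1.70 to 2.46; edgeR quasi-likelihood test, adjusted p = 0.00011), or 4.23-fold. The call held in all 13 alternatives of scaling, filter, test and left-out library.

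The gene named MAT2A on scaffold111 (fugu_GLEAN_10000584, plus strand, bases 62502 to 71015) carried most reads of the name. It held between 83.7% and 90.4% of the MAT2A reads per kilobase of gene length in each library. Its levels were 349, 416 and 240 CPM in CG and 717, 683 and 936 CPM in EG, so that every EG library exceeded every CG library. The log2 fold change was 1.22 (SE 0.234, 95% interval 0.68 to 1.75; edgeR, adjusted p = 0.00413), or 2.32-fold. The identity of this gene model is less certain than that of the others. Its Swiss-Prot match had an E-value of 1.08944e-14, where the other MAT2A genes were matched at 1.49766e-179 or listed at 0. Its GO terms name both methionine adenosyltransferase activity and the fibrinogen complex. Its KEGG entry is S-adenosylmethionine synthetase, as for Mat2a on scaffold73, whereas the other MAT2A genes have no KEGG entry. FGA, the fibrinogen alpha chain and a secreted product of hepatocytes, was taken for comparison after its values were seen. It stood at 8536, 7840 and 7531 CPM in CG and 20944, 15750 and 14023 CPM in EG. Its log2 fold change was 1.09 (edgeR, adjusted p = 0.00225). Within EG, FGA was highest in Ga and MAT2A on scaffold111 in Gc. A change of this size was not particular to FGA, since TTR rose by 1.08 and hnf4a by 1.21. Of 21 tested hepatocyte markers, 11 rose and 2 fell. Whether reads of another gene entered the count of MAT2A on scaffold111 was not tested.

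The gene named MAT2A on scaffold42 (fugu_GLEAN_10016644, plus strand, bases 4077939 to 4080330) did not rise. It stood at 62.5, 45.8 and 42.5 CPM in CG and 28.9, 33 and 47 CPM in EG, with Gc inside the CG range. Its log2 fold change was -0.47 (SE 0.227, 95% interval -0.99 to 0.05; edgeR, adjusted p = 0.126). It was called lower with library totals (log2 fold change -0.81, adjusted p = 0.0226) and in both limma fits on FPKM, which share that scaling. It was also called lower without Gc (-0.69, adjusted p = 0.0339). Adjusted p-values ran from 0.0226 to 0.39 over the 13 alternatives. Outside the name rule, a short model of 228 bases matched to the fly SAM synthetase lies 96 bases before it and had 16, 6 and 4 counts in CG and 0, 2 and 0 counts in EG, too few to be tested.

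The remaining pair of MAT2A genes was close to silent. Mat2a on scaffold109 (fugu_GLEAN_10012494) had 11, 4 and 10 counts in CG and 20, 9 and 2 counts in EG. With so few reads its log2 fold change of 0.48 had a 95% interval of -1.43 to 2.38 (edgeR, adjusted p = 0.668), so a change of several fold either way was not detectable. MAT2A on scaffold34 (fugu_GLEAN_10009385) had 0, 0 and 1 counts in CG and 2, 1 and 0 counts in EG and was removed by the filter on low counts.

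Together the 5 MAT2A genes took 0.0489%, 0.0531% and 0.0343% of all counts in CG and 0.0692%, 0.077% and 0.0932% in EG, with every EG library above CG. Most of these counts belonged to the gene on scaffold111, whose identity is less certain. The exact two-sided permutation test gave p = 0.1, the smallest that 3 against 3 libraries allow, and 0.175 after Benjamini-Hochberg adjustment over the 7 ratios and shares computed. Of the MAT2A reads per kilobase of gene length, Mat2a on scaffold73 supplied 3.67%, 3.7% and 4.58% in CG and 8.9%, 7.61% and 6.05% in EG. By the same measure the gene on scaffold42 supplied 11.8%, 7.64% and 11.6% in CG and 2.79%, 3.36% and 3.56% in EG. The order of the 2 genes was reversed between the groups in every library, although the difference between their changes was not tested.

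Among the enzymes that spend SAM and clear its product, Gnmt (fugu_GLEAN_10002034, scaffold428, minus strand, bases 196844 to 200451) stood at 300, 201 and 286 CPM in CG and 269, 173 and 330 CPM in EG. The groups overlapped throughout, and the log2 fold change was -0.03 (SE 0.26, 95% interval -0.63 to 0.57; edgeR, adjusted p = 0.942), an interval of 0.648 to 1.49 as a fold. Gnmt took 0.0296 ± 0.00655% of counts in CG and 0.0226 ± 0.00607% in EG (SD, n = 3; exact two-sided permutation test, p = 0.3).

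Adenosylhomocysteinase was found outside the name rule, since its match to the Xenopus laevis protein carries the name ahcy-a, and it was added after its values were seen. The gene (fugu_GLEAN_10000400, scaffold255, plus strand, bases 55758 to 67499) stood at 2357, 2413 and 2596 CPM in CG and 3998, 3365 and 4026 CPM in EG. All EG libraries were higher than all CG libraries, with a log2 fold change of 0.63 (SE 0.147, 95% interval 0.29 to 0.97; edgeR, adjusted p = 0.0096), or 1.55-fold. The call was lost with library totals (adjusted p = 0.127) and in both limma fits on FPKM, which share that scaling. Adjusted p-values ran from 0.000147 to 0.157 over 14 alternatives. The intervals of Gnmt and ahcy-a overlap, and the difference between their changes was not tested.

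**Figure D2:**
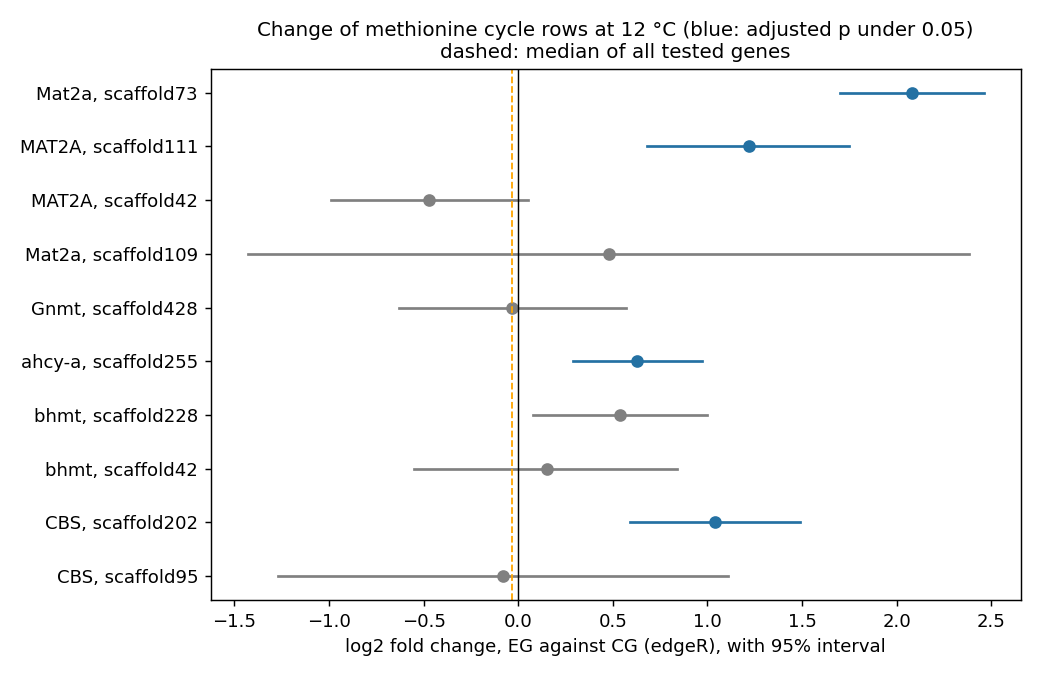
Log2 fold change of EG against CG from edgeR (horizontal axis) for the 9 tested methionine cycle genes and ahcy-a. Points are estimates, lines 95% intervals, blue marks an adjusted p under 0.05 and the dashed line is the median of all tested genes, -0.03; Mat2a on scaffold73 lies farthest to the right at 2.08.

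The enzymes that dispose of homocysteine were led by bhmt on scaffold228 (fugu_GLEAN_10014565, plus strand, bases 1277806 to 1280087), matched to the zebrafish protein. This gene alone took between 1.18% and 1.93% of the counts of a library, and per length it ranked between 5 and 10 among all genes. It stood at 12339, 13444 and 10288 CPM in CG and 16010, 14470 and 21996 CPM in EG, so that every EG library lay above every CG library. The log2 fold change of 0.54 (SE 0.199, 95% interval 0.08 to 1.00) did not pass the test (edgeR, adjusted p = 0.0559). It passed in DESeq2 (adjusted p = 0.0254) and without Gb (log2 fold change 0.67, adjusted p = 0.0408), and adjusted p-values ran from 0.0254 to 0.577 over the 13 alternatives. As a plain share of counts the groups overlapped, with 1.4%, 1.48% and 1.18% in CG and 1.32%, 1.41% and 1.93% in EG for both bhmt genes (exact two-sided permutation test, p = 0.5).

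The other bhmt gene, on scaffold42 (fugu_GLEAN_10016607, minus strand, bases 3659704 to 3662787), was read far less often. It stood at 26, 42.5 and 29.5 CPM in CG and 30.6, 25 and 53.1 CPM in EG, and its log2 fold change was 0.15 (SE 0.302, 95% interval -0.55 to 0.84; edgeR, adjusted p = 0.719). The groups overlapped, and the sign turned with upper quartile factors, with library totals, in both limma fits and without Gc. Its neighbour 1892 bases away is Dmgdh, which encodes the dehydrogenase of dimethylglycine, the product of the BHMT reaction. Dmgdh was among the genes that fell (edgeR, log2 fold change -2.37, adjusted p = 0.000165).

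CBS, the entry to transsulfuration, rose. The expressed gene (fugu_GLEAN_10003424, scaffold202, minus strand, bases 46878 to 51458) stood at 150, 143 and 168 CPM in CG and 307, 247 and 396 CPM in EG. Every EG library exceeded the highest CG library, and the log2 fold change was 1.04 (SE 0.195, 95% interval 0.59 to 1.49; edgeR, adjusted p = 0.00368), or 2.06-fold. The call held in all 13 alternatives. The CBS genes together took 0.017%, 0.0158% and 0.0194% of counts in CG and 0.0253%, 0.0241% and 0.0347% in EG, shares of the library total in which all EG libraries lay above CG (exact two-sided permutation test, p = 0.1, the smallest possible; 0.175 after adjustment over 7 quantities). The CBS gene on scaffold95 (fugu_GLEAN_10002430) had between 12 and 25 counts in each library, and its log2 fold change was -0.08 (95% interval -1.27 to 1.11; edgeR, adjusted p = 0.916).

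For MAT2A and CBS, an expressed gene and a same-named gene close to silent each lay beside a like-named neighbour. The names bhmt and Gnmt had no gene close to silent, so they allow no such comparison. Mat2a on scaffold73 and on scaffold109 each lie beside a gene matched to Inpp5j. MAT2A on scaffold111 and on scaffold34 each lie beside a gene matched to tmem150a. Both CBS genes lie beside a gene matched to U2AF1, a splicing factor subunit. The U2AF1 gene beside the expressed CBS gene fell (edgeR, log2 fold change -1.29, adjusted p = 0.00436), while the one beside the near-silent CBS gene rose (1.75, adjusted p = 0.000173). How alike the same-named genes are in sequence, and whether reads were shared between them, was not tested.

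**Figure D3:**
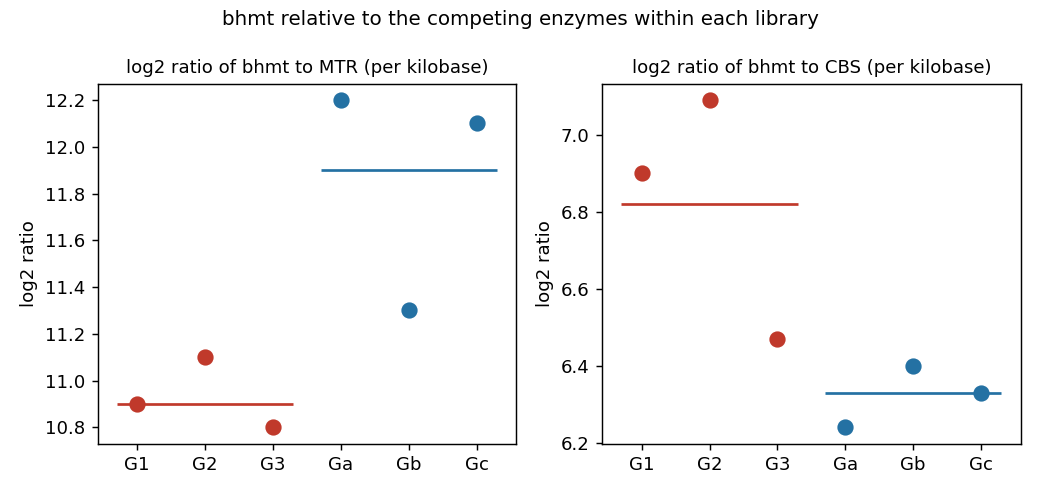
Log2 ratio of bhmt to MTR (left) and of bhmt to CBS (right), from summed counts per kilobase of each name, in each library (red CG, blue EG; lines are group means; the axes do not start at 0). The ratio to MTR runs from 10.8 to 11.1 in CG and from 11.3 to 12.2 in EG, and the ratio to CBS from 6.47 to 7.09 in CG and from 6.24 to 6.4 in EG.

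Ratios within a library compared the competing uses of homocysteine without any scaling between libraries. The log2 ratio of bhmt to MTR was 10.9, 11.1 and 10.8 in CG and 12.2, 11.3 and 12.1 in EG. The mean was 0.95 higher in EG on the log2 scale. The MTR sum holds a pair of genes with consecutive identifiers, which had between 74 and 181 counts in a library and did not pass the test. Whether the pair is parts of a single gene was not tested, and the level of the ratio depends on it. The log2 ratio of bhmt to CBS was 6.9, 7.09 and 6.47 in CG and 6.24, 6.4 and 6.33 in EG, a difference of -0.49 in the direction of CBS. Both separations were complete, with an exact two-sided permutation p = 0.1 each, the smallest this design allows, and 0.175 after adjustment over 7 quantities.

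For a comparison between genes, the authors' FPKM (fragments scaled by gene length and library size) takes account of length. In CG the mean FPKM was 11307 for bhmt on scaffold228, 409 for MAT2A on scaffold111, 332 for Gnmt and 100 for CBS on scaffold202. MAT2A and Gnmt overlapped between libraries, whereas bhmt lay 27.6-fold above the next gene. Below these came MAT2A on scaffold42 at 48.2, bhmt on scaffold42 at 28.7 and Mat2a on scaffold73 at 18.6 FPKM. In EG bhmt remained at the top with 12986 FPKM, followed by MAT2A on scaffold111 at 753, Gnmt at 254 and CBS at 162 FPKM, of which Gnmt and CBS overlapped. Mat2a on scaffold73, with 62.1 FPKM in EG, moved above both genes of scaffold42, which stood at 27.6 and 25.1 FPKM and overlapped. The 3 remaining genes stayed under 1 FPKM in both groups.

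For the most read gene of each name, the genes with the nearest course over the 6 libraries were sought. Nearness was the root mean square distance of centred log2 CPM among 5677 genes of at least 10 CPM. For bhmt on scaffold228 the nearest genes were CD97 (distance 0.067), BTG1 (0.071) and ucp2 (0.086), an adhesion receptor, an antiproliferative factor and a mitochondrial carrier. For MAT2A on scaffold111 they were CAPN1 (0.097), igf1 (0.125) and ndel1b (0.125), where igf1 encodes the insulin-like growth factor of liver. For Gnmt they were RDH12 (0.096), Lipc (0.106), the hepatic lipase, and CLEC3B (0.117). For CBS on scaffold202 they included HMGB2 (0.106) and WNT9A (0.120). Mat2a on scaffold73, taken in addition after its values were seen, was nearest to Rrs1 (0.095), a ribosome biogenesis factor, Dgcr14 (0.099) and C2orf42 (0.105). These distances describe 6 libraries that share a group effect.

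The genes around the cycle were counted in 6 lists, to be read against all tested genes, of which 23.7% rose and 21.7% fell (14.1% and 31.4% with library totals) with a median log2 fold change of -0.03. Of 10 tested partners of the cycle 5 (50%) rose, 0 fell and 5 did not pass, with a median of 0.65, beside 45.4% of all genes that passed in either direction. With library totals 3 rose and 0 fell. The gene mat2b, the regulatory subunit that binds MAT2A, stood at 5.08, 6.44 and 6.97 CPM in CG and 16.9, 21.9 and 15.2 CPM in EG, a log2 fold change of 1.54 (SE 0.204; edgeR, adjusted p = 0.000769). The amino acid carrier slc38a2, which takes up small neutral amino acids, stood at 16.6, 12.7 and 10.1 CPM in CG and 64.7, 37.4 and 110 CPM in EG (log2 fold change 2.42, adjusted p = 0.0017 in edgeR). All EG libraries of both genes were higher. Adenosine deaminase (ada), among the enzymes that remove the adenosine released by adenosylhomocysteinase, stood at means of 4.52 CPM in CG and 9.06 CPM in EG. It rose by a log2 fold change of 1.00 (edgeR, adjusted p = 0.00584), and Ahcyl2, a relative of adenosylhomocysteinase, by 0.73 (adjusted p = 0.00372). The call of Ahcyl2 was lost with library totals and in both limma fits.

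Of 16 tested genes that supply or use choline and betaine 1 (6.25%) rose, 7 (43.8%) fell and 8 did not pass, beside 23.7% and 21.7% of all tested genes. The median log2 fold change was -0.46, and with library totals 0 were higher and 8 lower, beside 14.1% and 31.4% of all genes. Chdh, the choline dehydrogenase that starts betaine formation, stood at 56.9, 71.3 and 67.8 CPM in CG and 15.8, 14.2 and 21.9 CPM in EG (log2 fold change -1.91, SE 0.198; edgeR, adjusted p = 0.000265). ALDH7A1, an aldehyde dehydrogenase that can complete betaine formation, stood at 48.3, 43.8 and 48.9 CPM in CG and 15.7, 20.6 and 14.7 CPM in EG (log2 fold change -1.47, adjusted p = 0.000391 in edgeR). For both genes every EG library lay below every CG library.

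Past BHMT, Dmgdh stood at 65.2, 71.7 and 65.2 CPM in CG and at 16, 9.11 and 14 CPM in EG, 5.17-fold lower. The 2 genes named Sardh, the sarcosine dehydrogenase of the next step, did not pass, with log2 fold changes of -0.08 and -0.14 (edgeR, adjusted p = 0.849 and 0.729). PEMT, which makes phosphatidylcholine with methyl groups of SAM, stood at 3.96, 4.07 and 3.59 CPM in CG and at 0.853, 0.54 and 0.731 CPM in EG (log2 fold change -2.44, adjusted p = 0.000572). Of the 2 tested genes named slc44a1, a choline transporter, the more expressed rose by 1.09 (adjusted p = 0.0106), a call lost with library totals and in both limma fits, and the other, under 1 CPM, did not pass (log2 fold change -0.93, adjusted p = 0.335).

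**Figure D4:**
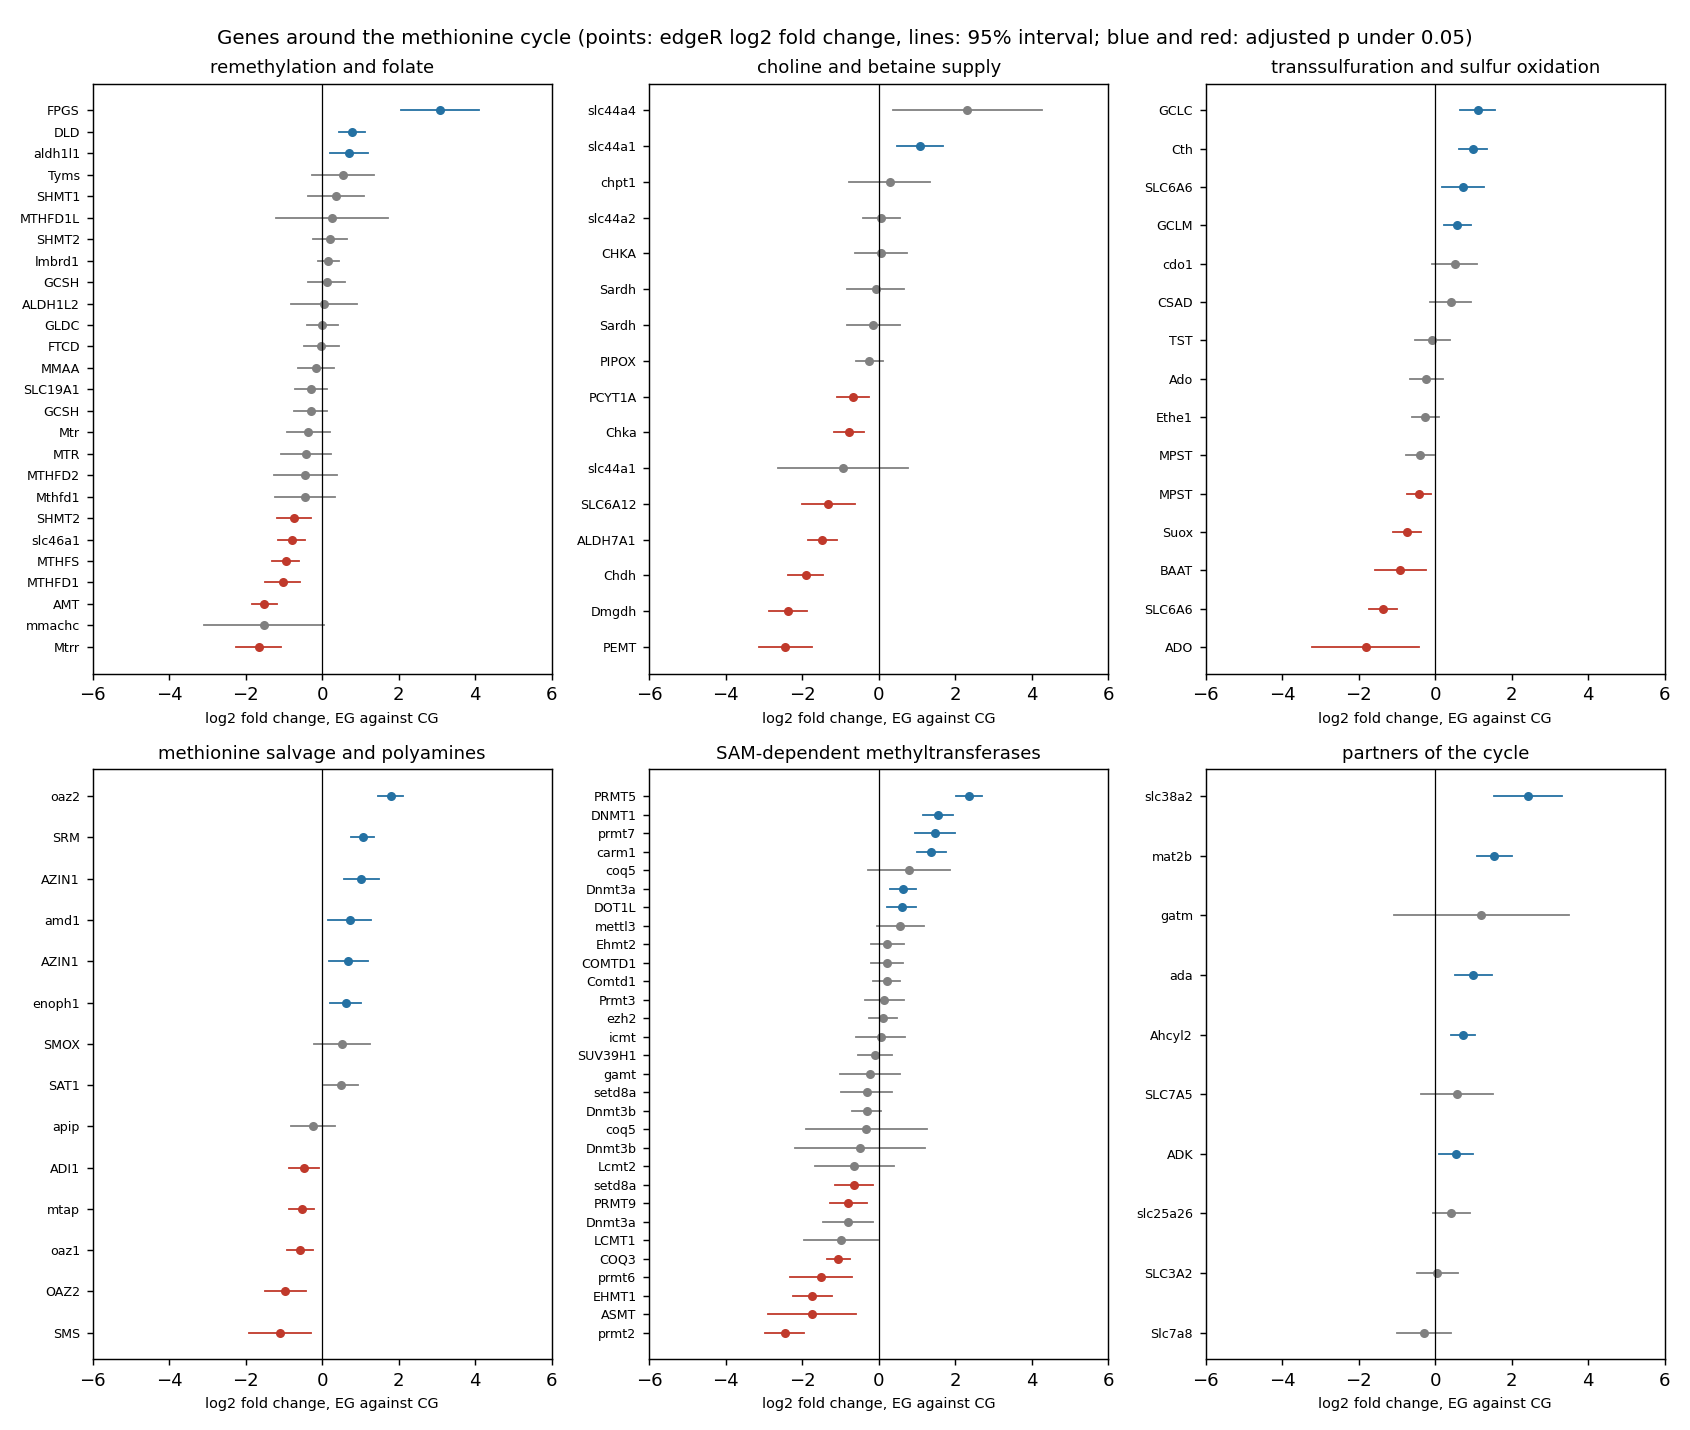
Log2 fold change of EG against CG from edgeR (horizontal axis) for tested genes of 6 lists around the methionine cycle, with 3 genes of remethylation and folate not drawn; points are estimates, lines 95% intervals, blue higher and red lower at an adjusted p under 0.05, grey not past the test. Of choline and betaine supply 7 of 16 genes are red, and of the partners of the cycle 5 of 10 are blue and 0 red.

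The list of remethylation and folate also covers the glycine cleavage system and other folate enzymes, and is thus wider than the route through MTR. Of its 29 tested genes 4 (13.8%) rose, 6 (20.7%) fell and 19 did not pass, beside 23.7% and 21.7% of all tested genes. The median was -0.14, and with library totals 2 were higher and 9 lower. A pair of genes with consecutive identifiers carries the name MTR and was read at 4.32, 3.86 and 5.01 CPM and at 4.18, 4.16 and 3.28 CPM in CG, and at 2.91, 4.29 and 3.07 CPM and at 1.97, 3.27 and 3.45 CPM in EG. Their log2 fold changes of -0.36 and -0.42 did not pass (edgeR, adjusted p = 0.26 each). Mtrr, the reductase that reactivates MTR, fell from 4.77, 5.3 and 4.71 CPM to 1.76, 1.18 and 1.73 CPM (log2 fold change -1.66, adjusted p = 0.00155).

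AMT of the glycine cleavage system fell by 1.51 on the log2 scale (edgeR, adjusted p = 0.000167), 1 of 2 genes named MTHFD1 by 1.03 (0.00362) and MTHFS by 0.95 (0.00182), the last 2 being enzymes that interconvert folates. The other and more expressed MTHFD1 gene, at 128 CPM in CG and 94.2 CPM in EG, did not pass (log2 fold change -0.44, adjusted p = 0.309). Nor did GLDC of the glycine cleavage system (0.01, adjusted p = 0.976 in edgeR) or the tested GCSH genes of that system (-0.30 and 0.12, adjusted p = 0.227 and 0.676). FPGS, which adds the glutamate tail that keeps folate in the cell, rose from 36.8, 31.3 and 39.3 CPM to 529, 227 and 148 CPM (log2 fold change 3.07, SE 0.445; edgeR, adjusted p = 0.00114), with a wide spread within EG. DLD, shared with the glycine cleavage system, rose by 0.77 (edgeR, adjusted p = 0.00392) and aldh1l1 by 0.70 (0.0297). The calls of DLD and aldh1l1 were lost with library totals and in both limma fits, and aldh1l1 also with upper quartile factors and without G1, G3, Gb or Gc. A bacterial-type homocysteine S-methyltransferase (ybgG, fugu_GLEAN_10007828) lies outside this list and was added after its values were seen. It stood at 4.32, 4.86 and 5.85 CPM in CG and 2.32, 1.97 and 2.31 CPM in EG (log2 fold change -1.19; edgeR, adjusted p = 0.00459).

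Downstream of CBS, Cth, which cleaves cystathionine to cysteine, rose alongside it. It stood at 74.2, 89.9 and 73.7 CPM in CG and 146, 143 and 182 CPM in EG (log2 fold change 0.99, SE 0.163; edgeR, adjusted p = 0.00206). GCLC, the catalytic subunit of the enzyme that commits cysteine to glutathione, rose by 1.12 (adjusted p = 0.00291) and its modifier GCLM by 0.58 (0.0164). Of 15 tested genes of transsulfuration and sulfur oxidation 4 (26.7%) were higher, 5 (33.3%) lower and 6 not past the test, shares to be read against the 23.7% and 21.7% of all tested genes. The median was -0.23, with library totals 2 were higher and 7 lower, and without G1, G2 or G3 the calls numbered 5, 4 and 5 in place of 9.

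Suox, sulfite oxidase, fell by 0.74 (edgeR, adjusted p = 0.00725), 1 of 2 genes named ADO, which oxidises cysteamine, by 1.82 (0.0398) and BAAT, which joins bile acids to taurine or glycine, by 0.91 (0.0328). The other and more expressed ADO gene, at 7.77 CPM in CG and 6.64 CPM in EG, did not pass (log2 fold change -0.23, adjusted p = 0.359), nor did the taurine synthesis genes cdo1 (0.51, adjusted p = 0.136) and CSAD (0.40, adjusted p = 0.196), Ethe1 (-0.26) or TST (-0.08). The pair of genes named SLC6A6, the taurine transporter, went apart, with 1 lower by 1.37 (adjusted p = 0.000442) and 1 higher by 0.73 (0.0355). The calls of GCLM and of the higher SLC6A6 gene were lost with upper quartile factors, library totals and both limma fits. GCLM also lost its call without G2 or G3, and the higher SLC6A6 gene without G1, G2, Ga or Gc. The calls of the lower ADO gene and of BAAT were lost in 5 of the 6 fits without a library each.

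Of 14 tested genes of polyamine synthesis and methionine salvage 6 (42.9%) were higher, 5 (35.7%) lower and 3 not past the test, beside 23.7% and 21.7% of all tested genes. The median was 0.50, with library totals 3 were higher and 5 lower, and without G1 or G2 the calls numbered 5 in place of 11. The gene oaz2, an antizyme that restrains ornithine decarboxylase, stood at 55.8, 60.1 and 56.4 CPM in CG and 220, 191 and 186 CPM in EG (log2 fold change 1.79; edgeR, adjusted p = 0.000108). SRM, spermidine synthase, rose by 1.06 (adjusted p = 0.000566), AZIN1, the antizyme inhibitor, by 1.03 (0.00479) and amd1, which decarboxylates SAM for this route, by 0.72 (0.0441). SMS, spermine synthase, fell by 1.11 (0.0342), another gene named OAZ2 by 0.96 (0.0104), oaz1 by 0.58 (0.0127) and mtap, which opens methionine salvage, by 0.53 (0.0187). The call of amd1 was lost with upper quartile factors, library totals, both limma fits and 5 of 6 left-out libraries. Those of SMS and mtap were lost in 4 and 2 of those 6 fits.

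Of 30 tested methyltransferases, the users of SAM, 6 (20%) rose, 7 (23.3%) fell and 17 did not pass, shares near the 23.7% and 21.7% of all tested genes. The median was -0.16, and with library totals 4 were higher and 10 lower. PRMT5, a protein arginine methyltransferase, stood at 8.59, 9.6 and 7.73 CPM in CG and 48.5, 43.9 and 40.5 CPM in EG (log2 fold change 2.36, SE 0.153; edgeR, adjusted p = 6.13e-05). DNMT1, the maintenance DNA methyltransferase, rose by 1.55 (adjusted p = 0.000336), prmt7 by 1.46 (0.00153) and carm1 by 1.37 (0.000492). In contrast prmt2 stood at 8.64, 8.53 and 7.59 CPM in CG and 1.65, 1.24 and 1.61 CPM in EG (log2 fold change -2.46, adjusted p = 0.000153).

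ASMT, the last enzyme of melatonin synthesis, fell by 1.75 (edgeR, adjusted p = 0.023), the histone methyltransferase EHMT1 by 1.74 (0.000636) and prmt6 by 1.51 (0.00908). The call of ASMT, which had between 5 and 31 counts in a library, was lost without the filter and in 5 of the 6 fits without a library. The gene gamt, which forms creatine and is a large user of SAM in mammalian liver, did not pass, at 231 ± 89.3 CPM in CG and 197 ± 70.6 CPM in EG (SD, n = 3; log2 fold change -0.23, adjusted p = 0.612).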

How the data were processed

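Liver mRNA of 3 CG and 3 EG libraries was sequenced by the authors as paired reads and aligned with HISAT2 2.0.4 to an unpublished genome of the species. The deposited counts and FPKM per gene came from RSEM 1.2.3 and DESeq was used by the authors for testing. The genome build and annotation are not given in the sources used here. The deposited table also holds the authors' group means, fold changes and p-values, none of which was used, and 1 of its rows was not analysed here. Coordinates and gene lengths are those the authors deposited.

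The deposited counts were analysed in R 4.3.3 with edgeR 4.0.16 (filterByExpr, TMM, quasi-likelihood test, Benjamini-Hochberg adjustment over 14357 genes, threshold 0.05), and the fit was tested on simulated data. The simulated data held few changed genes, with rises balanced by falls, and varied less than these libraries. They therefore cannot show how the scaling behaves when many genes change. The common biological coefficient of variation was 29.6%. The alternatives were other scaling factors, no filter, DESeq2 1.42.0, limma 3.58.1 on log2(FPKM + 1) or log2(FPKM + 0.1), same-named genes summed, and each library left out. The limma fits took FPKM without TMM factors and so share the scaling by library totals. Their median log2 fold changes of all tested genes were -0.24 and -0.36, beside -0.37 with library totals. A call lost or gained in these 3 settings is therefore not 3 separate results. Shares and ratios were compared by exact permutation tests. Every member was named, with up to 4 higher and 4 lower genes of each list and 10 genes named whatever their values. The 3 nearest patterns were sought for the most read gene of each name and, in addition, for Mat2a on scaffold73. The members and lists were chosen with earlier results of these data known. A few genes covered by these rules are not reported here, though the counts of their lists include them.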

Additional observations from a re-analysis of the deposited data

How the results depend on the processing

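The calls of Mat2a on scaffold73, MAT2A on scaffold111 and CBS on scaffold202 kept their direction and their side of the threshold in all 13 alternatives. With DESeq2 bhmt on scaffold228 passed at a log2 fold change of 0.54, and without single libraries its values ran from 0.35 to 0.67. MAT2A on scaffold42 passed as lower at -0.81 with library totals and at -0.80 and -0.82 in limma with 1 and 0.1 added to FPKM; without single libraries it ran from -0.69 to -0.28. The bhmt gene on scaffold42 turned to -0.04 with upper quartile factors, -0.20 with library totals and -0.23 and -0.24 in limma, and without single libraries it ran from -0.23 to 0.39. Without single libraries Gnmt ran from -0.24 to 0.20, CBS on scaffold95 from -0.52 to 0.14, Mat2a on scaffold109 from -0.29 to 0.96, the Sardh genes from -0.40 to 0.20 and from -0.47 to 0.12, and gamt from -0.51 to 0.12; Mat2a on scaffold109 was at -0.03 in limma with 0.1 added. Summing genes of 1 name gave 1.15 for MAT2A and 1.04 for CBS, since the most expressed gene carried most counts. For MAT2A that was the gene on scaffold111, whose identity is less certain. Of transsulfuration 4 to 7 genes passed without single libraries, in place of 9, of polyamines and salvage 5 to 9 in place of 11, and of the partners 3 with library totals and in both limma fits in place of 5. Leaving the 10 most abundant genes out of the denominator moved the gain of MAT2A from 0.0343 to 0.051 percentage points; for bhmt, itself among those genes, no value was formed. Ratios with MAT1A or AHCY could not be formed. Among the other named genes, 563 comparisons with an alternative kept direction and side of the threshold, 65 lost a call, 3 gained one and 6 changed sign. The causes were not tested. No paired analysis was made, since the groups were different fish in separate aquaria and no pairing of their libraries is described. Near-silent genes with at most 25 counts in a library are limited by depth.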
